A study of Mus musculus with 6 samples.

Results

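The genes described here encode the machinery that licenses replication origins, fires them and runs the replication fork. They were the 39 rows of a deposited count table of 50763 gene symbols whose names stood on a list chosen for that role. The rule that picked the rows used no measured value, but the list was chosen with earlier results of these data known. All 39 were found, and all 39 passed a filter on low counts that left 18860 genes for testing. They were read as 3 sets: 12 licensing genes, 7 firing genes and 20 genes of the fork and of nucleotide supply.

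Whole testes were taken from mice on postnatal day 14, and polyadenylated RNA was sequenced. The wild-type group (WT) had 3 samples. The group labelled sKO also had 3, and the series title describes it as a conditional knockout of Rif1 in germ cells before meiosis. The Cre driver, the deleted exons, the strain, and whether each sample was a separate animal could not be learned from the labels, so the p-values here reflect differences among these samples that may be technical in part. Somatic cells of the sKO testis are not described as deleted, and the counts cover all cells. In such bulk samples, fewer cells of a type and less RNA per cell cannot be told apart.

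Origins are licensed when the origin recognition complex (ORC), with CDC6 and CDT1, loads the MCM helicase onto DNA, and geminin blocks CDT1 once S phase has begun. In S phase the kinases DDK and CDK, with MCM10, treslin (Ticrr), CDC45 and the GINS complex, turn the loaded helicase into an active one, and polymerases, the PCNA clamp and its loader RFC then copy the strands. RIF1 brings the phosphatase PP1 to origins, where it opposes DDK and so delays firing. In the juvenile testis, DNA is replicated by dividing spermatogonia and, in the last S phase before meiosis, by preleptotene spermatocytes.

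Many S-phase genes carry sites for the E2F transcription factors near their start, and the promoters of the listed genes were searched for them. The search used windows of 300 bases, 250 before and 50 after the annotated start (RefSeq, GRCm38.p6), and 4 motifs of 8 bases, TTTCGCGC, TTTGGCGC, TTTCCCGC and TTTGCCGC, on both strands. Matches can overlap one another, as TTTCGCGC and TTTGGCGC do in Mcm5. Windows were on hand for 31 of the 39 genes, and 13 of them (41.9%) held a match, against 4.27% of the 13358 tested genes with a window. By set, the matches were in 7 of 11 licensing genes, 1 of 4 firing genes and 5 of 16 fork genes. The sequences below are shown because they hold a match in each of the 7 licensing genes that had one, and in Pole2, the fork gene with the highest estimate in sKO. For Mcm3, Mcm5 and Mcm7, which had 2 matches each, 1 is shown. Capitals mark the match, which is a description of the sequence and not evidence of binding.
Orc1 (chr4:108579416-108579445, plus strand): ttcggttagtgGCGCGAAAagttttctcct
Orc3 (chr4:34614965-34614994, minus strand): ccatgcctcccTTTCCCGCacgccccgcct
Cdc6 (chr11:98908002-98908031, plus strand): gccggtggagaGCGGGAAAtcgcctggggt
Cdt1 (chr8:122568035-122568064, plus strand): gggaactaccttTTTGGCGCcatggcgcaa
Mcm3 (chr1:20820263-20820292, minus strand): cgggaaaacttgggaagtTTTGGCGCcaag
Mcm5 (chr8:75109345-75109374, plus strand): gcgccaagaacTTTCGCGCcaaaacgtcca
Mcm7 (chr5:138171849-138171878, minus strand): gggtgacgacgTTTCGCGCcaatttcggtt
Pole2 (chr12:69228162-69228191, minus strand): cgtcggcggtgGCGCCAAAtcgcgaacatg

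The motif's first base lay at -27 in Orc1, -41 in Orc3, -138 in Cdc6, 33 in Cdt1, 39 in Mcm3, -153 in Mcm5, 17 in Mcm7 and 11 in Pole2, counted from the start with no base 0. No match was found in these windows for Orc5, Ticrr or Cdc45, which says only that those letters are not there.

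Libraries held 15941672 to 18296594 counts, so 3 counts, the limit that a count of 0 allows, correspond to 0.165 to 0.187 CPM (CPM, a count divided by its TMM-scaled library size; counting error only). The targeted gene Rif1 stood at 96.5, 83.7 and 129 CPM in WT libraries 1 to 3 against 42.0, 46.4 and 49.2 CPM in sKO libraries 1 to 3. It was lower in every sKO library (log2 fold change -1.17 with an SE of 0.15, edgeR adjusted p = 0.0145). The exact two-sided permutation test gave p = 0.1, the smallest that 3 against 3 allows. Leaving out WT library 2, sKO library 1 or sKO library 2 gave an adjusted p of 0.137, 0.0618 or 0.120. Markers of pachytene spermatocytes, summed over 11 genes, stood at 1301, 922 and 635 CPM in WT libraries 1 to 3. In sKO libraries 1 to 3 the sums were 258, 293 and 419 CPM, and 4 of the 9 tested markers were called lower. The 14 spermatogonial markers summed to 1071 to 1173 CPM in WT and 1158 to 1210 CPM in sKO, and the 10 Sertoli cell markers to 4434 to 5292 and 5467 to 6634 CPM. Single genes weigh heavily in such sums, as Clu did among the Sertoli markers with 2929 to 3614 CPM in WT. Among the spermatogonial markers, Id4 was lower in every sKO library (log2 fold change -0.69, edgeR adjusted p = 0.200), and Gfra1, Ret and Etv5 were higher in every one. The estimates of those higher genes were 0.24, 0.30 and 0.12 (edgeR adjusted p 0.533, 0.289 and 0.632). The rest of that list overlapped between the groups, Dmrtb1 with an estimate of -0.32 (edgeR adjusted p = 0.359). Of all tested genes, 10.7% were lower and 9.58% higher without overlap. The 6 Leydig cell markers summed to 189 to 283 CPM in WT and 286 to 416 CPM in sKO. The 5 epididymis markers summed to 181 CPM in sKO library 1 and to at most 20.8 CPM elsewhere, and Crisp1 and Adam7 were at 0 in sKO library 3. None of these marker genes was at 0 in all 6 libraries. The part of these cell type markers in the results below was not tested.

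Taken as a median, the listed genes differed little between the groups, and the counts called were near the shares over all genes. Single genes and the firing set differed more, as given below. With edgeR's quasi-likelihood test and Benjamini-Hochberg adjustment over all genes, 0 of the 39 were called lower and 0 higher at an adjusted p under 0.05, where 1.27% of tested genes were called lower and 0.0318% higher (1.3% in all). DESeq2 called 1 lower (Gins1) and 0 higher, where it called 3.22% of genes lower and 0.253% higher. With limma-voom 0 of the 39 were called in either direction, where it called 0.0795% of genes lower (15 of 18860) and 0 higher. The smallest edgeR adjusted p among them was 0.110, for Gins1. At an unadjusted p under 0.05, 4 were lower and 0 higher (10.3% lower, where all tested genes gave 8.54% lower and 5.06% higher). The median log2 fold change of sKO over WT was 0.02, against 0.03 over all genes tested, and 19 of the 39 estimates (48.7%) were below 0, against 44.7% of all.

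The intervals bound how large a difference these data allow. The 95% interval of the fold change, unadjusted for the number of genes, lay within a 2-fold change in either direction for all 39 genes, against 77.05% of all tested genes. It lay within a 1.5-fold change for 35 of the 39 (89.7%, against 52.8% of all). The listed genes had a median WT level of 57.1 CPM and all tested genes one of 17.9 CPM, so the listed genes were also the more deeply counted. The 4 genes with wider or more distant intervals were Gins1, Orc5, Ticrr and Pole2. The plot of fold changes with their intervals shows them at the ends of their sets.

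**Figure D1:**
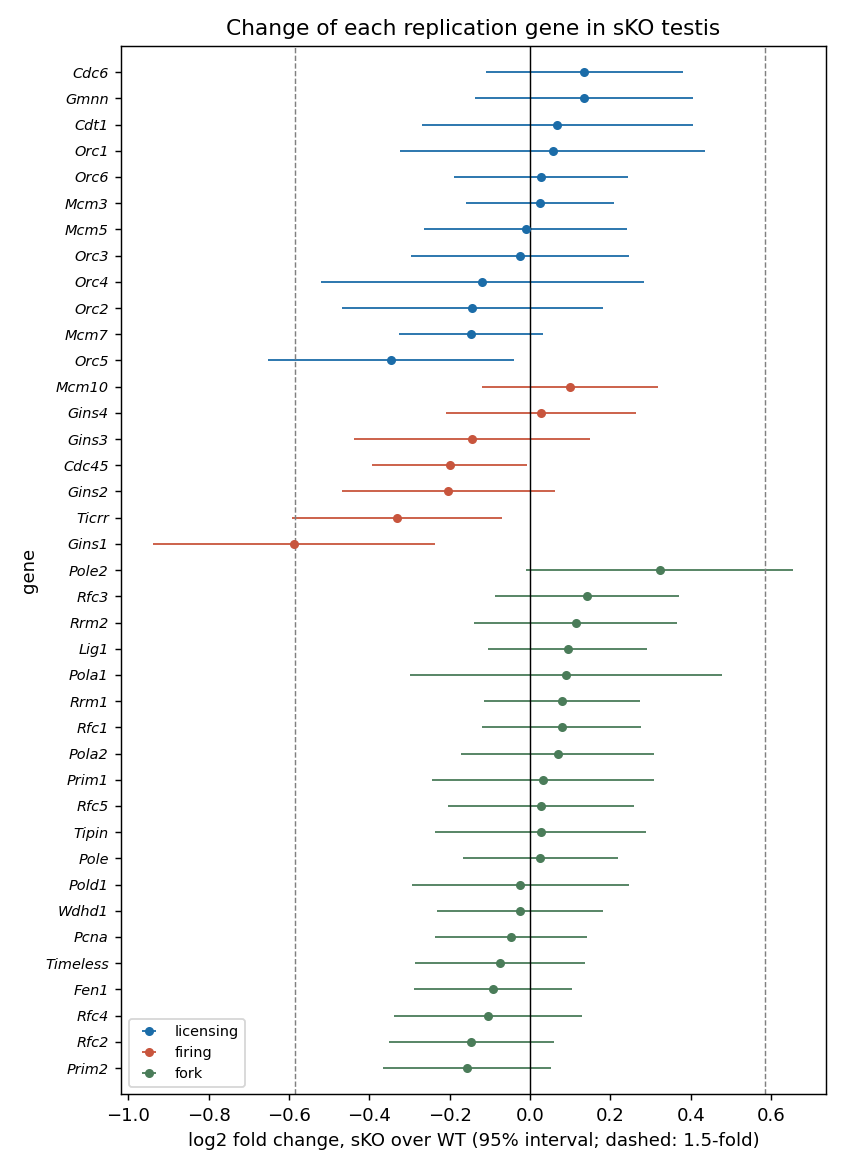
Log2 fold change of sKO over WT for each of the 39 genes with its 95% interval, grouped by set, dashed lines marking a 1.5-fold change. Gins1 has the lowest estimate, at -0.59, and Pole2 the highest, at 0.32, and the intervals of 35 genes stay between the dashed lines.

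The 3 sets were not alike in their medians. The median log2 fold change was 0.01 for the 12 licensing genes, -0.20 for the 7 firing genes and 0.03 for the 20 fork genes. Relative to the WT mean, the median firing gene stood at 0.00, -0.02 and -0.02 (log2) in WT libraries 1 to 3 against -0.17, -0.21 and -0.13 in sKO libraries 1 to 3. That median was lower in each sKO library than in any WT library, but the 7 genes did not all go that way. Mcm10 was higher in every sKO library, Gins3 and Gins4 overlapped between the groups, and 0 of the 7 passed the test. For licensing the same values were 0.09, -0.14 and -0.03 in WT and -0.03, -0.07 and 0.11 in sKO, and for the fork 0.06, -0.06 and -0.01 in WT and 0.03, -0.02 and 0.04 in sKO. Those medians overlapped between the groups, and no test was made of the difference between sets.

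Taken gene by gene, the WT and sKO libraries did not overlap for 11 of the 39. In 8 of them (20.5%, against a background of 10.7% of tested genes) every sKO library was lower, and in 3 (7.69%, against a background of 9.58%) every sKO library was higher. The 8 were Orc5, Mcm7, Gins1, Gins2, Cdc45, Ticrr, Rfc2 and Prim2. The 3 were Mcm10, Rfc3 and Pole2. Of the 7 firing genes, 4 were among the lower and 1 among the higher.

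**Figure D2:**
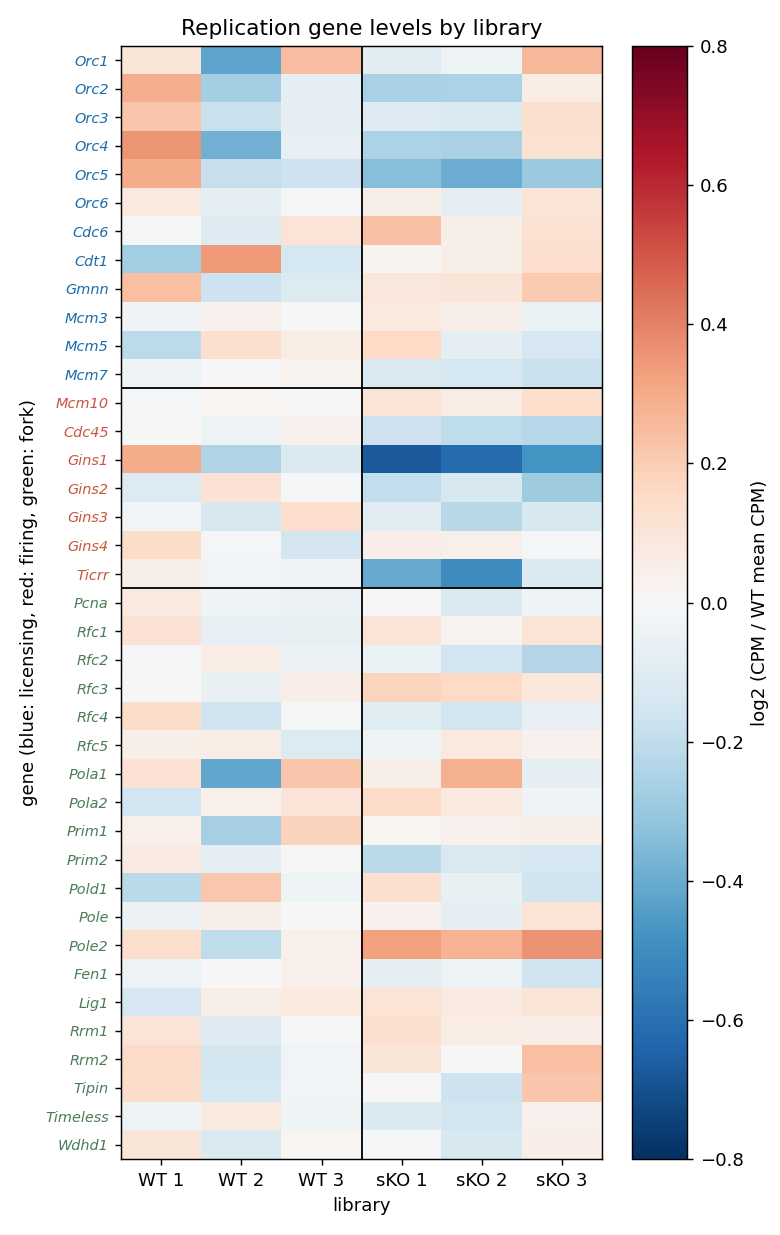
Each row is 1 of the 39 genes and each column a library, coloured by log2 of its CPM over the WT mean (blue lower, red higher), with lines between the sets and the groups. Gins1 and Ticrr are blue in all 3 sKO columns, and Orc2, Orc3, Orc4 and Orc5 have their highest level in WT library 1.

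Among the firing factors, Gins1 had the lowest estimate of the list. It encodes PSF1, a subunit of the 4-part GINS complex that joins CDC45 and MCM in the active helicase. Its level was 30.2, 20.9 and 22.7 CPM in WT libraries 1 to 3 against 15.4, 16.05 and 17.6 CPM in sKO libraries 1 to 3. WT library 1 was highest, and even the lowest WT library was above every sKO library. The log2 fold change was -0.59 (95% interval -0.94 to -0.24, edgeR adjusted p = 0.110), an estimate 33.4% below WT. Gins1 passed the threshold with DESeq2 (adjusted p = 0.0294, where 3.22% of genes were called lower) and with edgeR when no filter on low counts was used (adjusted p = 0.00723, where 2.83% were). The p-values of that unfiltered fit were those of a normal distribution, as if the variance were known. With 3 libraries against 3 they are too small. Without WT library 1 the estimate for Gins1 was -0.41 (edgeR adjusted p = 0.320).

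The other GINS subunits differed less. Gins2 stood at 24.1, 28.3 and 25.7 CPM in WT against 22.7, 23.8 and 21.4 CPM in sKO, without overlap but close. Of its annotated exon bases, 67.3% are shared with Gse1 on the opposite strand, and whether strand was used in counting is not stated, so its reads cannot be told from those of Gse1. Gins3 had a mean of 18.55 ± 1.73 CPM in WT against 16.8 ± 0.769 CPM in the sKO group (SD, n = 3 each), and Gins4 one of 42.6 ± 4.35 and 43.4 ± 0.9999 CPM. Their libraries overlapped, and the 95% intervals of their log2 fold changes were -0.44 to 0.15 and -0.21 to 0.26.

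Ticrr, which encodes treslin and carries the CDK signal to the helicase, stood at 52.7, 50.1 and 49.997 CPM in WT libraries 1 to 3 against 38.6, 35.9 and 47.0 CPM in sKO libraries 1 to 3. The WT libraries were tightly grouped, and sKO library 3 was closer to WT than the other two. The log2 fold change was -0.33 (95% interval -0.59 to -0.07, edgeR adjusted p = 0.234). Without sKO library 3 it was -0.49 and passed the threshold (edgeR adjusted p = 0.0442, where 3.23% of genes were called lower).

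Cdc45, the helicase partner of MCM and GINS, stood at 76.4, 74.2 and 78.2 CPM in WT against 67.9, 66.1 and 65.2 CPM in sKO. Both groups were tight and separate, and the difference was small (log2 fold change -0.20, 95% interval -0.39 to -0.01, edgeR adjusted p = 0.349). Mcm10, a scaffold of helicase activation, went the other way, with 33.1, 33.8 and 33.3 CPM in WT against 35.9, 34.8 and 36.8 CPM in sKO (log2 fold change 0.10, edgeR adjusted p = 0.711).

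**Figure D3:**
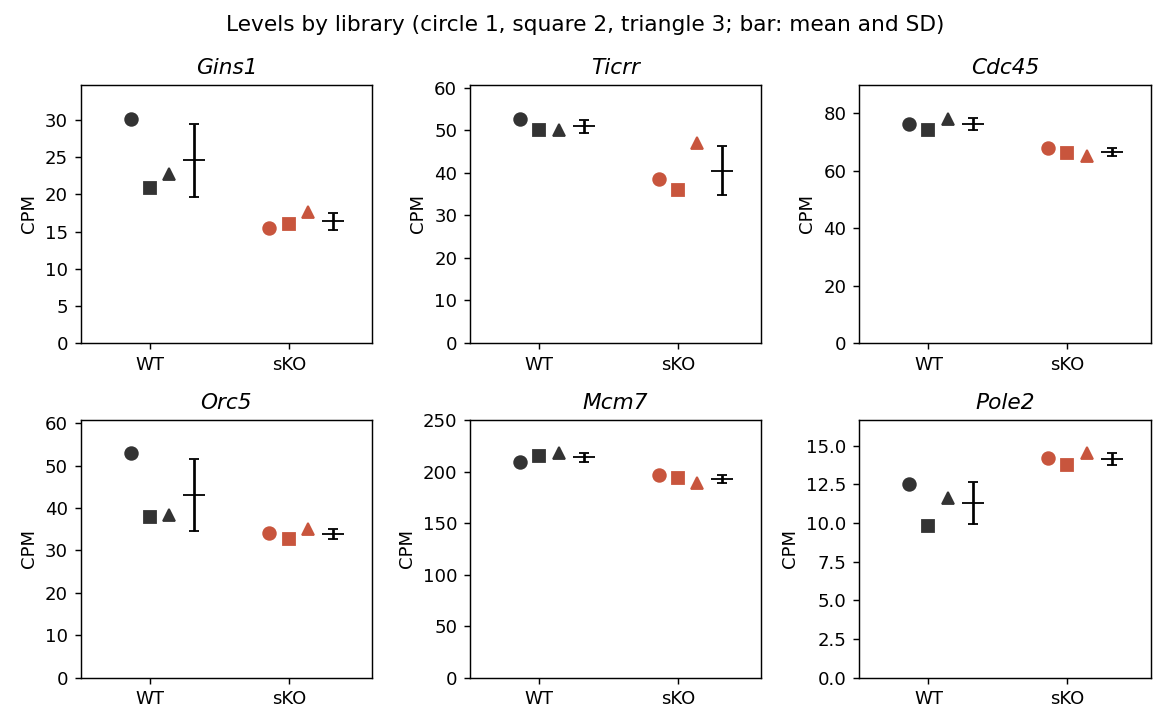
CPM of 6 genes in each library (circle, square and triangle for libraries 1 to 3; black WT, red sKO; bars show mean and SD, n = 3), with each axis starting at 0. WT library 1 stands above the other WT libraries for Gins1 and Orc5, at 30.2 and 52.9 CPM, while Cdc45 and Mcm7 are tight in both groups.

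Among the licensing genes, the MCM helicase subunits were abundant and steady. Mcm3 stood at 177, 185 and 181 CPM in WT against 191, 186 and 174 CPM in sKO, with overlapping groups and a 95% interval of -0.16 to 0.21 (log2). Mcm5 had a mean of 215 ± 25.5 CPM in WT against 213 ± 23.2 CPM in the sKO group (SD, n = 3 each). Mcm7 stood at 209, 215 and 218 CPM in WT against 196, 194 and 189 CPM in sKO, which did not overlap, and its log2 fold change was -0.15 (95% interval -0.33 to 0.03, edgeR adjusted p = 0.470).

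The remaining subunits of the hexamer, Mcm2, Mcm4 and Mcm6, were named after their values were seen. Mcm6 stood at 157, 159 and 165 CPM in WT against 174, 173 and 177 CPM in sKO, and Mcm4 at 94.2, 86.1 and 91.2 CPM in WT against 105, 94.2 and 99.4 CPM in sKO. Their log2 fold changes were 0.12 and 0.14, and that of Mcm2 was 0.09, with edgeR adjusted p of 0.547, 0.540 and 0.758. No subunit of the hexamer passed the test, with Mcm7 estimated lower and Mcm4 and Mcm6 higher without overlap. The groups of Mcm4 were barely apart, with 94.21 CPM in WT library 1 and 94.22 CPM in sKO library 2.

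ORC has 6 subunits, of which ORC1 binds and leaves origins with the cell cycle while the others are more constant. Orc5 had the lowest estimate of the 6, with 52.9, 37.9 and 38.4 CPM in WT libraries 1 to 3 against 34.0, 32.7 and 35.0 CPM in sKO libraries 1 to 3. The groups did not overlap, and WT library 1 stood well above the other two. The log2 fold change was -0.35 (95% interval -0.65 to -0.04, edgeR adjusted p = 0.296), and without WT library 1 it was -0.17 (edgeR adjusted p = 0.661). Orc2, Orc3 and Orc4 also had estimates below 0 (-0.14, -0.03 and -0.12), which were 0.03, 0.10 and 0.10 without WT library 1. Orc1 and Orc6 had estimates of 0.06 and 0.03.

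The loading factors CDC6 and CDT1 and the CDT1 inhibitor geminin (Gmnn) had estimates above 0 that did not pass. Cdc6 stood at 31.4, 29.5 and 34.2 CPM in WT against 37.2, 32.7 and 34.5 CPM in sKO. Cdt1 stood at 28.1, 42.9 and 30.8 CPM in WT against 34.4, 35.1 and 37.3 CPM in sKO, and Gmnn at 57.3, 43.1 and 44.8 CPM in WT against 51.6, 51.8 and 56.1 CPM in sKO. The log2 fold changes were 0.14, 0.07 and 0.13. Per kb of exon, the level of Cdt1 over that of Gmnn was 0.229, 0.465 and 0.321 in WT libraries 1 to 3 against 0.311, 0.316 and 0.3101 in sKO libraries 1 to 3. The sKO ratios were nearly equal and lay inside the range of the WT ratios.

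Among the 20 fork genes, 0 had an unadjusted edgeR p under 0.05 in either direction, where 8.54% of tested genes were lower and 5.06% higher. Pole2, the second subunit of polymerase epsilon, the leading-strand enzyme, had the highest estimate of the whole list. It stood at 12.5, 9.84 and 11.6 CPM in WT against 14.2, 13.7 and 14.5 CPM in sKO, without overlap (log2 fold change 0.32, 95% interval -0.01 to 0.66, edgeR adjusted p = 0.387). Its catalytic partner Pole stood at 213 ± 7.21 CPM in WT against 217 ± 14.0 CPM in the sKO group (SD, n = 3 each), a log2 fold change of 0.03.

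PCNA, the sliding clamp, stood at 159, 148 and 147 CPM in WT against 151, 140 and 148 CPM in sKO (log2 fold change -0.05, 95% interval -0.24 to 0.14). Its loader RFC has 5 subunits, with estimates between -0.15 and 0.14. Rfc2 was lower in sKO without overlap, at 77.6, 81.9 and 76.1 against 75.6, 70.6 and 66.7 CPM, and Rfc3 higher without overlap, at 30.2, 28.9 and 31.2 against 34.1, 33.6 and 31.9995 CPM. Subunits of the same loader thus had estimates on both sides of 0, and neither passed the test (edgeR adjusted p 0.536 and 0.590).

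The primase and polymerase alpha complex, which lays down primers, showed the same picture. Prim2 stood at 61.2, 55.6 and 58.1 CPM in WT against 50.2, 53.6 and 53.1 CPM in sKO (log2 fold change -0.16, 95% interval -0.37 to 0.05), while Pola1, Pola2 and Prim1 had estimates of 0.09, 0.07 and 0.03. Pold1, the catalytic subunit of the lagging-strand polymerase delta, stood at 114 ± 17.4 CPM in WT against 112 ± 11.3 CPM in the sKO group (SD, n = 3 each). Fen1 and Lig1, which trim and join Okazaki fragments, had log2 fold changes of -0.09 and 0.09.

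Rrm1 and Rrm2, the subunits of ribonucleotide reductase that makes deoxyribonucleotides, had estimates of 0.08 and 0.11. Timeless, Tipin and Wdhd1, which hold the fork together and couple helicase to polymerase, had estimates of -0.07, 0.03 and -0.02. The 95% intervals of these 5 log2 fold changes all lay between -0.29 and 0.37.

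Levels can be compared between genes only per length, and exon lengths were taken from GENCODE vM21 (GRCm38). In WT, CPM per kb of exon ran from 2.36 ± 0.520 for Pola1 to 63.0 ± 2.96 for Pcna (SD, n = 3 each), with a median of 13.3 over the 39 genes. With the longest transcript as the length, the median was 23.8, and Pola1 and Pcna remained the lowest and the highest, at 3.89 and 99.6 CPM per kb. Subunits of a complex were not at equal RNA levels. Gins4 stood at 31.6 CPM per kb and Gins2 at 6.36 in WT, a ratio of 4.97, and in sKO the ratio was 5.83. Reads of Gins2 cannot be told from those of Gse1, so its level per kb is uncertain. Rfc4 and Rfc5 share 12.7% and 10.7% of their exon bases with Eif4a2 and Wsb2 on the opposite strand, which limits their ratio too. Rfc4 exceeded Rfc5 by 4.90-fold in WT and 4.47-fold in sKO, and Pole exceeded Pole2 by 4.86-fold and 3.96-fold. Mcm3, Mcm5 and Mcm7 were within 1.12-fold of one another per kb in WT and within 1.23-fold in sKO, although with the longest transcript Mcm7 stood at 72.2 and Mcm3 at 52.7 CPM per kb.

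**Figure D4:**
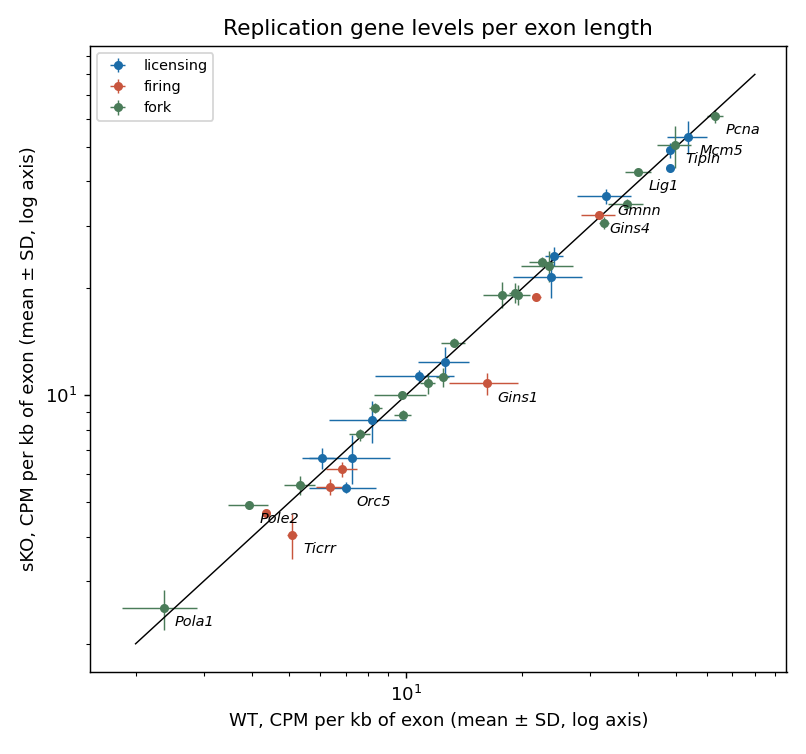
Mean level per kb of exon in WT (x) against sKO (y) for the 39 genes, both axes logarithmic, with SD bars (n = 3) and a line of equality. Most genes lie on the line over a range from 2.36 to 63.0 CPM per kb in WT, with Gins1, Ticrr and Orc5 below it and Pole2 above it.

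The WT libraries also differed among themselves. WT library 1 was the highest of the 3 WT libraries for 18 of the 39 genes (46.2%, against 38.6% of all tested genes), and in 15 of those (38.5% of the 39, against 23.6% of all) WT library 2 was the lowest. In 8 genes (20.5%, against 21.4% of all) WT library 2 was highest and WT library 1 lowest. Orc4 stood at 69.0 CPM in WT library 1 and 41.4 in WT library 2, and Cdt1 at 28.1 and 42.9. The summed pachytene markers also differed among the WT libraries, with 1301, 922 and 635 CPM in libraries 1 to 3. Whether the spread of the 39 genes moved with those markers was not tested.

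That spread moved with the base composition of the transcripts, a relation looked for after the values were seen. Across the 39 genes, the log2 ratio of WT library 1 to WT library 2 had a Pearson correlation of -0.81 with the GC content of the longest transcript, as a description over genes that share the same 2 libraries. Over 16703 tested genes it was -0.45. Orc4, with the lowest GC content of the list at 36.8%, had a ratio of 0.74, while Cdt1 and Pold1, with the highest at 57.8% and 61.0%, had ratios of -0.61 and -0.43. The group difference itself had a correlation of 0.03 with GC content across the 39 genes. With a GC correction of each library, an alternative chosen after seeing the data, the median coefficient of variation of the 39 genes between WT libraries was 5.09%, against 8.06% without it, and between sKO libraries 4.98%, against 4.78%.

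After that correction, 0 of the 39 genes passed the edgeR test in either direction, where 0.812% of genes were called lower and 0.173% higher. At an unadjusted p under 0.05, 4 were lower and 1 higher, where 8.55% of genes were lower and 11.5% higher, so that over all genes more were higher than lower, unlike without the correction. Orc5 stood at 45.5, 44.0 and 37.4 CPM in WT against 35.1, 34.6 and 33.0 CPM in sKO, still without overlap, with an estimate of -0.31 (edgeR adjusted p = 0.117). Gins1 stood at 28.5, 21.3 and 22.4 CPM in WT against 15.5, 16.5 and 17.96 CPM in sKO, with an estimate of -0.53 (edgeR adjusted p = 0.0751). Pole2 and Cdc45 had estimates of 0.39 and -0.17 (edgeR adjusted p 0.127 and 0.195). The median of the firing genes was -0.17 and those of the licensing and fork genes 0.03 and 0.06, against 0.06 over all genes in that fit.

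**Figure D5:**
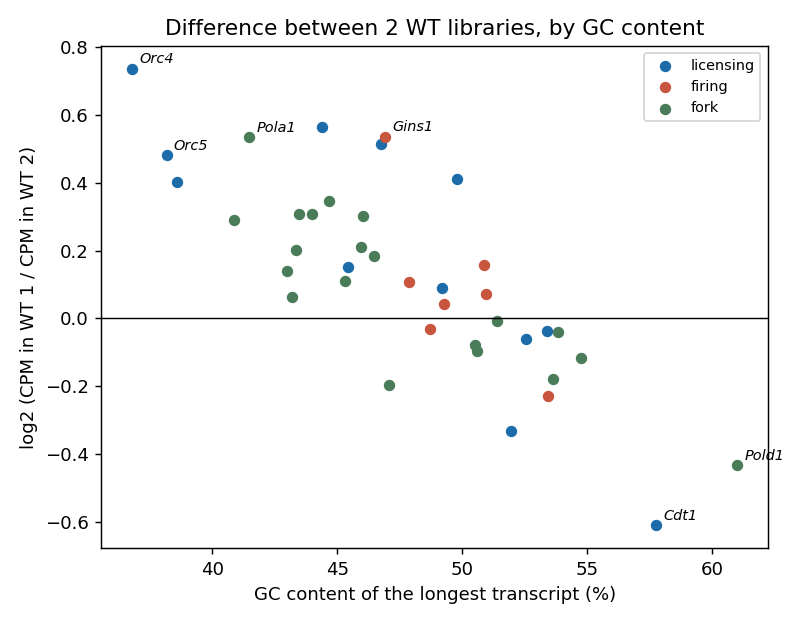
For each of the 39 genes, the log2 ratio of its CPM in WT library 1 to that in WT library 2, against the GC content of its longest transcript, coloured by set. Points run from Orc4 at the upper left (0.74) to Cdt1 (-0.61) and Pold1 (-0.43) at the lower right.

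Another 38 genes of replication, nucleotide supply and nucleosome assembly were read beside the list. Of the 37 that could be tested (Chtf8 had 0 counts in all 6 libraries), 0 were called lower and 0 higher, where 1.27% and 0.0318% of all tested genes were. At an unadjusted p under 0.05, 5 were lower (13.5%, against 8.54% of all) and 0 higher (against 5.06%), and the median log2 fold change was 0.00. DESeq2 called 1 of them lower (against 3.22% of all) and limma-voom 0 (against 0.0795%). Asf1b, a histone chaperone of dividing cells, stood at 116, 105 and 99.9 CPM in WT against 70.8, 75.1 and 91.7 CPM in sKO, without overlap (log2 fold change -0.43, 95% interval -0.69 to -0.18, edgeR adjusted p = 0.102). Topbp1, which works with treslin in firing and also activates the ATR kinase, stood at 288, 226 and 233 CPM in WT against 186, 179 and 216 CPM in sKO (log2 fold change -0.36, edgeR adjusted p = 0.181). All sKO libraries of Topbp1 were below all WT libraries. The other firing factors read here, Dbf4, Mtbp, Donson and Recql4, named after their values were seen, and Cdc7 all overlapped between the groups, with log2 fold changes of -0.20, -0.20, -0.16, 0.11 and -0.22.

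Top2a, the topoisomerase of dividing cells, stood at 457 ± 49.9 CPM in WT against 372 ± 26.3 CPM in the sKO group (SD, n = 3 each), and Chaf1a, a subunit of the chromatin assembly factor CAF-1, at 61.9 ± 2.60 and 52.5 ± 4.02 CPM. Pole3, a histone-fold subunit of polymerase epsilon, and Cdc7, the kinase of DDK, had overlapping libraries and log2 fold changes of -0.25 and -0.22, which were -0.13 and -0.09 without WT library 1. The edgeR adjusted p of these 4 genes ran from 0.226 to 0.472. Asf1b was called lower with DESeq2 (adjusted p = 0.0338), when low counts were not filtered (0.00471) and without sKO library 3 (0.0183), and Topbp1 without the filter (0.0247). Of all genes, 3.22%, 2.83% and 3.23% were called lower in those fits. The p-values without the filter are too small, as said for Gins1.

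Among 20 genes of E2F and S-phase control, 0 were called lower and 0 higher, where 1.27% and 0.0318% of all tested genes were. At an unadjusted p under 0.05, 1 was lower and 2 higher, against 8.54% and 5.06% of all. Neither DESeq2 nor limma-voom called any of the 20, where DESeq2 called 3.22% of genes lower and 0.253% higher. The shares with limma-voom were 0.0795% lower and 0 higher. The 1 was Rbl1, which encodes the pocket protein p107, with 56.1, 31.9 and 37.1 CPM in WT against 25.5, 24.1 and 33.9 CPM in sKO. The groups overlapped through WT library 2 and sKO library 3 (log2 fold change -0.58, edgeR adjusted p = 0.249). Rbl1 was called only without the low-count filter (edgeR adjusted p = 0.000780, where 2.83% of genes were called lower), a fit whose p-values are too small. Without WT library 1, its highest library, the estimate was -0.31 (edgeR adjusted p = 0.544). The 2 were Rbl2, encoding the related p130, and Cdkn1b, encoding the CDK inhibitor p27. Rbl2 stood at 44.8, 45.1 and 43.7 CPM in WT against 53.3, 54.9 and 49.8 CPM in sKO, and Cdkn1b at 44.6, 43.8 and 42.7 CPM in WT against 48.3, 53.2 and 51.2 CPM in sKO. Neither passed the test (edgeR adjusted p 0.285 and 0.349), and their groups did not overlap.

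E2f6 and E2f8, repressors of the E2F family, had estimates of 0.22 and 0.35, and the S-phase cyclin Ccna2 one of 0.15 (edgeR adjusted p 0.386, 0.392 and 0.533). E2f1, the activator named with replication genes, had an estimate of -0.01 and was chosen after its value was seen. Stra8, which marks cells about to enter meiosis in their last S phase, stood at 101, 129 and 167 CPM in WT libraries 1 to 3 against 137, 124 and 142 CPM in sKO libraries 1 to 3, with overlapping groups. The 4 markers of that stage summed to 415 to 525 CPM in WT and 472 to 545 CPM in sKO.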

How the data were processed

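Raw read counts per gene symbol were deposited in 1 table with 1 column per sample. The authors used Trim Galore, HISAT2 and featureCounts on mm39, per the submitters' processing notes. Versions, annotation, strand setting and treatment of multi-mapping reads are not stated, so reads of overlapping genes and near-identical copies cannot be told apart. Of the 39 genes, 18 share exon bases with another annotated gene, and Orc2 and Gins2 share 29.8% and 67.3% with Nif3l1 and Gse1. Fen1 shares 78.8% with Gm10143 on the opposite strand, a gene that was not among those tested. Columns named con and scKO were read as WT and sKO of the same replicate number.

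Counts were tested with edgeR 4.0.16 (R 4.3.3) on the whole table: filterByExpr, TMM factors, robust quasi-likelihood F test of sKO against WT without covariates, Benjamini-Hochberg adjustment over 18860 genes, threshold 0.05. Standard errors and 95% intervals came from the F statistic. CPM use TMM-scaled library sizes. Lengths and GC content came from GENCODE vM21 and promoters from RefSeq (GRCm38.p6). Because the counts were made on mm39, coordinates are given only for printed sequences. Alternatives were RLE factors, DESeq2 1.42.0, limma-voom (limma 3.58.1), no low-count filter, a replicate block, and fits leaving out libraries. A GC correction was added later, for the 16739 genes with a GC value. For it, each gene's log2 CPM was taken as a deviation from its mean over all libraries. A loess of these deviations on GC, fitted per library, was entered as offsets. The scripts were tested on simulated data. Replicates of a group were not repeat counts of 1 library (chi-square over its degrees of freedom, 4.81 to 22.7 by pair).

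The genes, lists and alternatives were chosen with earlier results of these data known. Text names Rif1, the 39 genes, and in the other replication and S-phase control lists the 6 smallest p each. Further tested genes of those lists are marked where named. The cell type markers named singly were Id4, Gfra1, Ret, Etv5, Dmrtb1, Clu, Crisp1, Adam7 and Stra8. No such rule picked them, and they are to be read as chosen with their values seen.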

Additional observations from a re-analysis of the deposited data

How the results depend on the processing

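The counts of listed genes called rested on few settings. Against 0 called lower, 1 was called lower with DESeq2 (Gins1), without the low-count filter (Gins1) and without sKO library 3 (Ticrr), so leaving out 1 library each gave 0 to 1. The other replication genes gave 1 with DESeq2, 2 without the filter and 0 to 1 over the fits leaving out 1 library, and the S-phase control genes 1 without the filter. Of all genes, 3.22% were called lower with DESeq2, 2.83% without the filter and 3.23% without sKO library 3. The p-values without the filter are too small, as said for Gins1. In 3 of the fits leaving out 1 library, 0 genes of the whole table were called. The median of the 39 genes lay between -0.053 and 0.025 over the fits leaving out 1 library, with -0.039 without WT library 2 and -0.053 without sKO library 3. Rif1 had log2 fold changes between -1.30 and -0.97 over those fits, losing its call in 3 of them. The median level of the 39 genes per kb in WT was 23.8 with the longest transcript in place of 13.3.

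The median of the firing genes stayed between -0.23 and -0.17 over the 13 alternatives. Of the 17 listed genes with an estimate of at least 0.1 in size, 8 moved by over 1.5 times or turned when 1 library was left out. Besides Orc2, Orc4 and Orc5 these were Cdc6 (0.07 to 0.19), Gmnn (0.06 to 0.27), Gins3 (-0.20 to -0.07), Rfc4 (-0.18 to -0.02) and Rrm2 (0.01 to 0.20). Signs of small estimates turned in up to 9 of the 39 genes (without sKO library 3), and among them Orc2, Orc3 and Orc4 without WT library 1. The labels do not say that same-numbered samples are pairs, so the numbers were not taken as pairs. Deviations of same-numbered samples from their group means had correlations of -0.34, 0.12 and -0.28, and WT library 1 and sKO library 3 had 0.45. These correlations cannot decide pairing, because deviations within a group are tied to one another. With a replicate block, 0 of the 39 genes were called, Gins1 had an estimate of -0.57 (edgeR adjusted p = 0.266), the medians of all 39, licensing, firing and fork genes were 0.02, 0.01, -0.20 and 0.03, and 21 genes of the whole table were called lower, against 240. Depth was least for the lowest genes: Pole2, at 11.3 CPM in WT, had an SE of 0.15 and Mcm3, at 181 CPM, one of 0.08. The SE did not follow depth alone, as Orc4, at 54.0 CPM in WT, had one of 0.18 and Mcm10, at 33.4 CPM, one of 0.10.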
